A study of Sus scrofa with 8 samples.

Results

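A set of 9 genes of lipolysis and the lipid droplet was followed in back muscle (longissimus dorsi) of weaned piglets: the lipases PNPLA2, LIPE and MGLL, the lipase regulators ABHD5 and G0S2, and the droplet coat genes PLIN2, PLIN3, PLIN4 and PLIN5. They were taken by gene symbol, and 9 of 9 had a row among the 23235 genes of the deposited table. The animals were Duroc x Landrace x Yorkshire crosses weaned at 28 days. After 5 days of adaptation, the control group received saline by gavage and the melatonin group 5 mg melatonin per kg body weight, each morning for 23 days, on the same basal diet. Melatonin is the pineal hormone that signals darkness. The study randomised 6 piglets to each group, and 4 control and 4 melatonin libraries of poly(A) RNA are compared here. Since the labels give only a group and a number, a library is treated as 1 piglet and p-values measure the spread between these samples. Levels are in FPKM, a count scaled to gene length and library total, and group levels are means ± SD with n = 4. Differences are edgeR log2 fold changes ± SE of melatonin relative to control, fitted on counts.

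Fat is stored in cells as triglyceride inside lipid droplets, and lipolysis releases its fatty acids step by step. PNPLA2 (adipose triglyceride lipase) cuts the first fatty acid, LIPE (hormone-sensitive lipase) acts on the diglyceride, and MGLL splits the monoglyceride. ABHD5 activates PNPLA2 and G0S2 inhibits it. Perilipins coat the droplet and control access of the lipases to it. In muscle, droplets lie within fibres, mostly oxidative ones, and also within adipocytes between the fibres. A bulk library holds RNA of both, so fewer cells of a type and less RNA per cell cannot be told apart.

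By position on Sscrofa11.1, PLIN5 and PLIN4 were neighbours. PLIN3 (ENSSSCG00000038954, 73970200 to 73995311), PLIN5 (ENSSSCG00000013513, 74300619 to 74314309) and PLIN4 (ENSSSCG00000013512, 74318628 to 74331909) all lie on the plus strand of chromosome 2, with 4318 bases and 0 annotated genes between PLIN5 and PLIN4, and 305307 bases and 9 annotated genes between PLIN3 and PLIN5. PLIN2 (ENSSSCG00000035863) lies on chromosome 1, 203683862 to 203697099. PNPLA2 (ENSSSCG00000012841) is also on chromosome 2, far from the coat genes, at 513077 to 518182. LIPE (ENSSSCG00000003018) is on chromosome 6, 49540708 to 49560125, and MGLL (ENSSSCG00000024134) on chromosome 13, 72480296 to 72568960. ABHD5 (ENSSSCG00000011297, chromosome 13, 27006217 to 27056744) shares 323 bases at its start with ANO10, a membrane protein gene on the opposite strand. Whether reads were counted by strand is not given in the sources used here. G0S2 (ENSSSCG00000015617) has a model of only 418 bases, chromosome 9, 133287325 to 133287742, whereas the RefSeq gene on the same assembly spans 1002 bases.

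Total counts ran from 53471667 to 60629098 per library. Fibre genes showed the labelled tissue: summed FPKM of 7 muscle fibre markers lay between 87782 and 122933 in every library. Melatonin replicates 1 and 3 stood apart by connective tissue genes, with 8451 and 2522 summed FPKM of 6 fibroblast markers against 478 to 936 in the other 6 libraries. COL1A1 and COL1A2 made up most of these sums, at 3457 and 3550 FPKM in replicate 1 and 913 and 908 in replicate 3. In replicate 3, these 2 genes, DCN and PDGFRA lay above every control. COL3A1 (361 FPKM) and LUM (18.8 FPKM) there lay below control replicate 1 (443 and 29.5 FPKM). Where leaving out these libraries moved a value by over 1.5 times or ended a call at an unadjusted p under 0.05, the value without them is given.

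After 23 days of melatonin, none of these genes passed the test of a difference between the groups. A gene was tested if its mean FPKM was at least 1, which kept 8 of the 9 and left out G0S2. In edgeR's quasi-likelihood test, 0 of the 8 passed an adjusted p of 0.05, as did 0.0% of all 9821 genes tested, and DESeq2 called 0 of the 8 and 0.662% of all genes. At an unadjusted p under 0.05, 1 of the 8, ABHD5, was higher and 0 were lower, against 6.67% of all genes higher and 3.84% lower. The 8 log2 fold changes had a median of 0.09 against -0.0014 over all genes, with 6 above 0 and 2 below. Over all genes, 4893 lay above 0 and 4928 below. Without melatonin replicates 1 and 3, only ABHD5 (0.40) and PNPLA2 (0.13) lay above 0, and the rest of the 8 lay below. In FPKM the groups overlapped for 8 of 8 genes, and 2.2% of all genes had groups that did not overlap.

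By level, PNPLA2 led and G0S2 was at the edge of detection. Over the 8 libraries PNPLA2 averaged 54.2 FPKM, higher than 95.2% of the genes tested, followed by PLIN4 at 24.2, MGLL at 21.1, PLIN2 at 12.5, LIPE at 8.20 and PLIN5 at 5.98. ABHD5 at 2.23 FPKM and PLIN3 at 1.87 lay in the lower part of the tested range. The range of PNPLA2 lay wholly above that of PLIN4, and PLIN3 lay wholly above G0S2. Ranges of the other neighbours in this order overlapped. Within libraries, PLIN4 exceeded MGLL in 6 of 8, LIPE exceeded PLIN5 in 5 of 8 and ABHD5 exceeded PLIN3 in 5 of 8, so these neighbours were not separated, while PLIN5 exceeded ABHD5 in 7 of 8, and MGLL exceeded PLIN2 and PLIN2 exceeded LIPE in 8 of 8.

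**Figure D1:**
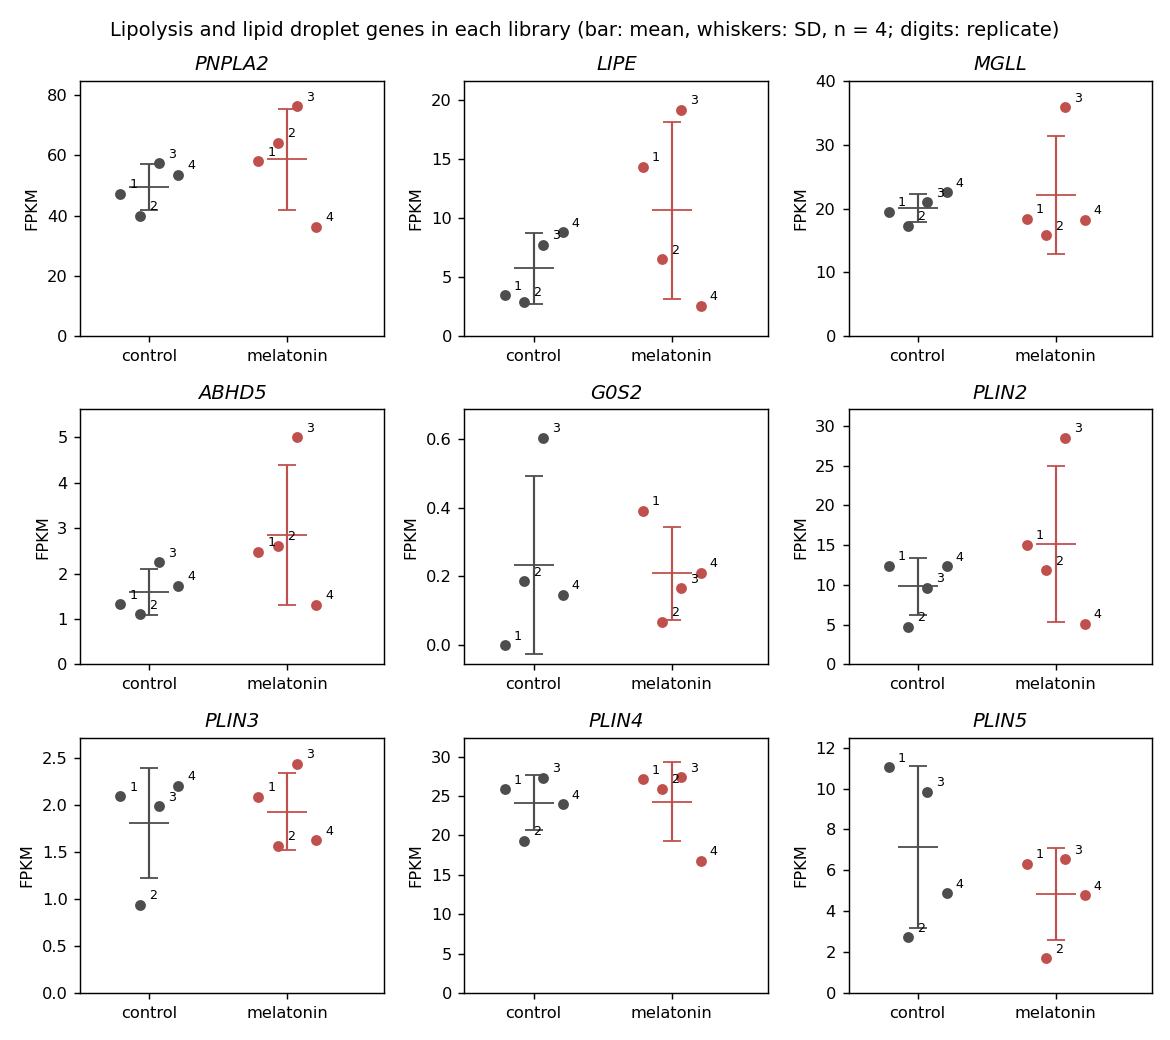
FPKM of each of the 9 genes (vertical axis, from 0) in the 4 control and 4 melatonin libraries, with digits for the replicate, a bar for the mean and whiskers for the SD. Melatonin replicate 3 is the highest point for 7 of the 8 tested genes, and the groups overlap in every panel.

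PNPLA2, the lipase that opens triglyceride breakdown, measured 47.2, 39.9, 57.5 and 53.6 FPKM in control replicates 1 to 4 and 58.1, 64.2, 76.4 and 36.3 FPKM in melatonin replicates 1 to 4. In FPKM, melatonin replicates 1 to 3 lay above every control and melatonin replicate 4 below every control. On TMM-scaled log2 CPM, the scale of the fold change, which allows for differences in library makeup, melatonin replicate 1 stood at -0.031 from the control mean, below control replicates 3 and 4 at 0.18 and 0.051. The group means were 49.6 ± 7.70 and 58.8 ± 16.8 FPKM, and the log2 fold change was 0.15 ± 0.18 (95% interval -0.25 to 0.55, edgeR adjusted p = 0.762). It was 0.035 without melatonin replicate 2, 0.079 without melatonin replicate 3 and 0.27 without melatonin replicate 4.

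ABHD5, the protein that activates PNPLA2, had a like pattern in FPKM with wider steps. It measured 1.32, 1.10, 2.25 and 1.73 FPKM in controls and 2.48, 2.61, 5.00 and 1.32 FPKM after melatonin. In FPKM at least 3 melatonin libraries, here replicates 1 to 3, exceeded every control, as in 13.4% of all genes tested, while replicate 4 lay among the low controls. On TMM-scaled log2 CPM only replicates 2 and 3 did, since melatonin replicate 1 stood at 0.41 and control replicate 3 at 0.49, and 12.5% of all genes had 3 or more melatonin libraries above every control on that scale. The means were 1.60 ± 0.504 and 2.85 ± 1.54 FPKM, with a log2 fold change of 0.71 ± 0.31 (95% interval 0.0049 to 1.41, unadjusted p = 0.0487, edgeR adjusted p = 0.473). Without melatonin replicate 3 the log2 fold change of ABHD5 was 0.40 (edgeR unadjusted p = 0.184). Without melatonin replicates 1 and 3 together it was also 0.40 (edgeR unadjusted p = 0.242). ABHD5 also missed an unadjusted p of 0.05 without control replicate 1, 2 or 4 (edgeR unadjusted p = 0.114, 0.112 and 0.0789). The same held without melatonin replicate 2 (edgeR unadjusted p = 0.0868). Without melatonin replicate 4 its log2 fold change was 0.90 (edgeR unadjusted p = 0.0105, adjusted p = 0.143). The overlapping ANO10 had a log2 fold change of -0.02 ± 0.24 and did not share the pattern: its highest FPKM values were 8.25 in melatonin replicate 1 and 7.70 in control replicate 4.

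G0S2, the inhibitor of PNPLA2, gave 0, 5, 15 and 4 counts in controls and 10, 2, 4 and 6 counts after melatonin. With 24 counts in the control group and 22 in the melatonin group, no difference was detectable at these counts. They were taken over a model of 418 bases, whereas the RefSeq gene spans 1002. The part of the short model in the low counts was not tested. The edgeR fit without a filter gave a log2 fold change of -0.29 ± 1.35 (adjusted p = 0.965). In control replicate 1 the count of 0 allows up to 3 counts, which covers counting error only.

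The ratio of ABHD5 to the lipase it activates did not pass the exact test. The log2 ratio of ABHD5 to PNPLA2 in FPKM was -5.16, -5.18, -4.68 and -4.95 in controls and -4.55, -4.62, -3.93 and -4.78 in melatonin libraries. Melatonin replicates 1 to 3 were above every control, and replicate 4 was below control replicate 3 alone. Means were -4.99 ± 0.23 and -4.47 ± 0.37, a difference of 0.52 (two-sided exact permutation p = 0.0571 over 70 assignments, adjusted p = 0.114 over 2 ratios). The difference was 0.29 without melatonin replicates 1 and 3.

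**Figure D2:**
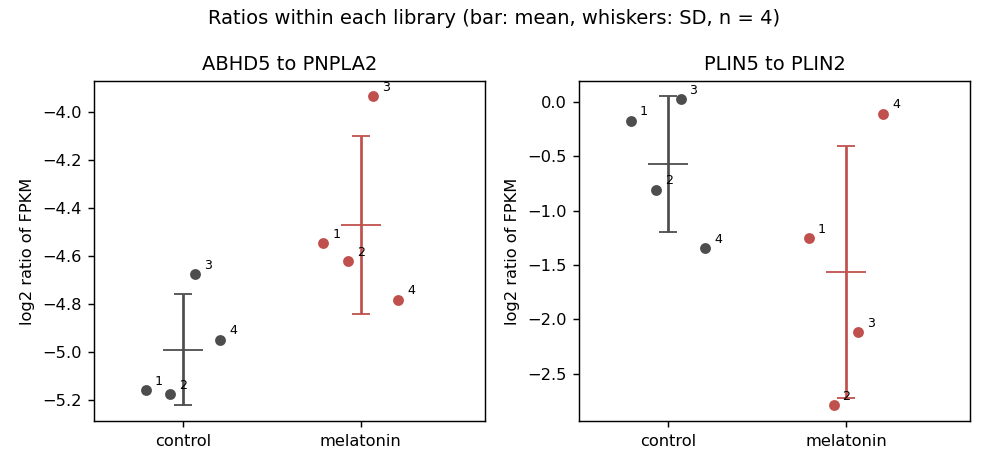
Log2 ratio of FPKM (vertical axis) of ABHD5 to PNPLA2 and of PLIN5 to PLIN2 in each control and melatonin library, with the replicate number, the mean and the SD. The ABHD5 ratio is higher in melatonin replicates 1 to 3 than in any control, and the PLIN5 ratio runs from -2.79 to -0.11 after melatonin.

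LIPE, the hormone-sensitive lipase, spread most among the lipases. It measured 3.47, 2.91, 7.74 and 8.83 FPKM in controls and 14.4, 6.53, 19.2 and 2.57 FPKM after melatonin. The highest library stood 7.49 times above the lowest, and both extremes were melatonin libraries. Means were 5.74 ± 2.98 and 10.7 ± 7.52 FPKM, with a log2 fold change of 0.73 ± 0.50 (95% interval -0.38 to 1.85, edgeR adjusted p = 0.586). The sign turned to -0.22 without melatonin replicates 1 and 3, and the fold change was 0.36 without melatonin replicate 3 alone.

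Markers of adipocytes, where LIPE is abundant, differed in the same libraries. Of the 9 adipocyte markers, 8 were in the table and 6 passed the filter: 5 of those 6 lay above 0 with a median log2 fold change of 1.58 (0.22 without melatonin replicates 1 and 3), and 0 reached an unadjusted p under 0.05. The summed FPKM of all 8 by library was 64.8, 40.4, 174 and 74.2 in controls and 256, 105, 235 and 34.5 after melatonin. Control replicate 3 and melatonin replicates 1 and 3 were thus high, and the groups overlapped. ADIPOQ, the adipocyte hormone adiponectin, measured 77.6 and 50.7 FPKM in melatonin replicates 1 and 3, 30.4 in control replicate 3 and 21.7 in melatonin replicate 2, and 0.990 to 2.27 in the other 4 libraries. LEP, the hormone leptin, was listed at 0 in 5 of the 8 libraries and ACVR1C in 4. Control replicate 4 had the highest LIPE of the controls with ADIPOQ at 2.27 FPKM. The markers were mixed in that library. CFD was highest there of the 8 libraries, while FABP4, PLIN1, CIDEC and TRARG1 were lower there than in control replicate 3. The part of adipocyte content in the LIPE values was not tested.

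MGLL, which completes lipolysis, was the steadiest lipase in controls. Its values were 19.5, 17.3, 21.0 and 22.6 FPKM in controls and 18.4, 15.8, 35.9 and 18.3 FPKM after melatonin. Melatonin replicate 3 stood alone above all others, and the coefficient of variation was 11.2% in controls and 42.0% after melatonin. Means were 20.1 ± 2.26 and 22.1 ± 9.29 FPKM, and the log2 fold change of 0.03 ± 0.20 (95% interval -0.43 to 0.49, edgeR adjusted p = 0.962) became -0.20 without that library.

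Among the coat genes, PLIN2 had a log2 fold change above 0 and PLIN5 below 0, neither of which passed the test, and PLIN3 and PLIN4 lay near 0. PLIN2, the coat protein found in most cell types, measured 12.4, 4.76, 9.64 and 12.4 FPKM in controls and 15.0, 11.8, 28.5 and 5.14 FPKM after melatonin. Melatonin replicates 1 and 3 were above the controls in FPKM, while replicates 2 and 4 fell within their range. On TMM-scaled log2 CPM replicate 2 also lay above them, at 0.44 against a highest control of 0.37. Means were 9.81 ± 3.61 and 15.1 ± 9.82 FPKM, with a log2 fold change of 0.49 ± 0.39 (95% interval -0.38 to 1.36, edgeR adjusted p = 0.637). It was 0.09 without melatonin replicate 3 and -0.08 without melatonin replicates 1 and 3.

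PLIN5, the coat protein of oxidative tissues that tethers droplets to mitochondria, had the lowest fold change of the 8 genes. It measured 11.0, 2.72, 9.84 and 4.87 FPKM in controls and 6.32, 1.71, 6.55 and 4.77 FPKM after melatonin. Controls were split between high replicates 1 and 3 and low replicates 2 and 4, and melatonin replicate 2 was the lowest of all. Means were 7.12 ± 3.97 and 4.84 ± 2.23 FPKM, with a log2 fold change of -0.65 ± 0.44 (95% interval -1.63 to 0.33, edgeR adjusted p = 0.586). It ranged from -0.89 to -0.37 when any library was left out. With the replicate number as a block, PLIN5 had an unadjusted p of 0.0308, a level reached by 4.59% of all genes in the lower direction, and an edgeR adjusted p of 0.438.

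Markers of slow fibres, which are rich in droplets, followed a like order of libraries. The summed FPKM of the 6 slow fibre markers was 10112, 2163, 6142 and 3203 in controls and 5417, 664, 6164 and 3014 after melatonin. Control replicate 1 was thus highest and melatonin replicate 2 lowest for both the markers and PLIN5. Of the 6 markers 6 lay below 0, with a median log2 fold change of -0.59 (-1.33 without melatonin replicates 1 and 3), and 0 reached an unadjusted p under 0.05. Their part in the PLIN5 values was not tested.

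PLIN4, a coat protein of adipocytes and muscle, was the most even of the 8 genes. Its values were 25.8, 19.3, 27.3 and 24.0 FPKM in controls and 27.1, 25.9, 27.4 and 16.8 FPKM after melatonin, a range of 1.63-fold. Melatonin replicate 4 was the lowest and the other 3 melatonin libraries lay close to the highest controls in FPKM. On TMM-scaled log2 CPM melatonin replicates 1 and 3 stood at -0.092 and -0.087, below 3 of the 4 controls. The log2 fold change was -0.08 ± 0.15 (95% interval -0.41 to 0.25, edgeR adjusted p = 0.857). The neighbouring PLIN5 ranged 6.46-fold over the same libraries.

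PLIN3, a coat protein that shuttles between cytosol and droplet, was the lowest coat gene. It measured 2.09, 0.941, 1.99 and 2.21 FPKM in controls and 2.09, 1.57, 2.44 and 1.63 FPKM after melatonin. Control replicate 2 was the low library, and the other 7 lay between 1.57 and 2.44. The log2 fold change was 0.02 ± 0.23 (95% interval -0.49 to 0.53, edgeR adjusted p = 0.978).

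As shares of the summed FPKM of PLIN1 to PLIN5, PLIN4 was the main coat transcript in 7 of 8 libraries. PLIN4 took 55.2 ± 9.73% in controls and 47.0 ± 12.0% after melatonin, PLIN2 21.5 ± 5.57% and 25.3 ± 8.04%, and PLIN5 14.8 ± 5.39% and 9.42 ± 5.37%. In the other, melatonin replicate 3, PLIN2 took 36.4% and PLIN4 35.0%. PLIN1, the adipocyte coat protein, took 28.3, 11.2 and 17.1% in melatonin replicates 1 to 3 and 15.6% in control replicate 3, against 0.631 to 1.52% in the other 4 libraries. These shares were not tested and are a description.

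**Figure D3:**
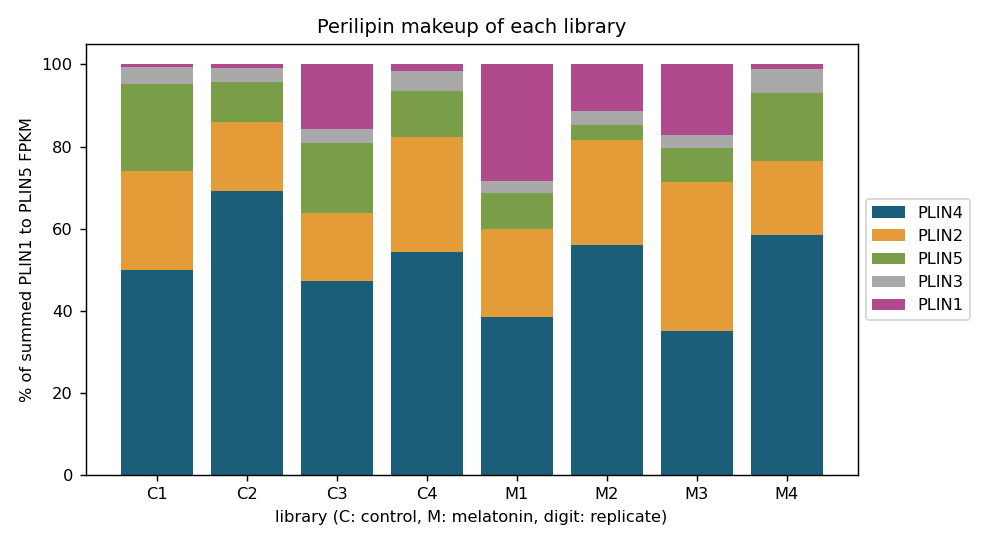
Share of PLIN1 to PLIN5 in their summed FPKM (vertical axis, percent) for each library (C, control; M, melatonin; digit, replicate). PLIN1 is above 11% in C3, M1, M2 and M3 and below 2% elsewhere, and PLIN5 is lowest in M2 at 3.69%.

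The balance of PLIN5 to PLIN2 did not pass its test either. The log2 ratio was -0.17, -0.81, 0.03 and -1.35 in controls and -1.25, -2.79, -2.12 and -0.11 after melatonin. Melatonin replicates 2 and 3 lay below every control and replicate 4 among the highest. Means were -0.57 ± 0.63 and -1.57 ± 1.16, a difference of -0.99 (two-sided exact permutation p = 0.200, adjusted p = 0.200 over 2 ratios), and -0.59 without melatonin replicate 2.

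Across the genes, melatonin replicate 3 was most often the highest library. Spread between libraries was not tested against spread between groups. In FPKM, melatonin replicate 3 was the highest of the 8 libraries for 7 of the 8 tested genes, PLIN5 being the exception, against 27.9% of all genes. On TMM-scaled log2 CPM it was highest for 4 of the 8, against 11.6% of all genes. Melatonin replicate 4 and control replicate 2 were each lowest for 3 of the 8 in FPKM, against 21.5 and 29.1% of all genes. LIPE, ABHD5 and PLIN2 had their largest positive deviations from the control mean in melatonin replicate 3, at 1.62, 1.41 and 1.35 on the log2 CPM scale. In melatonin replicate 4 the same genes stood at -0.84, -0.07 and -0.68.

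**Figure D4:**
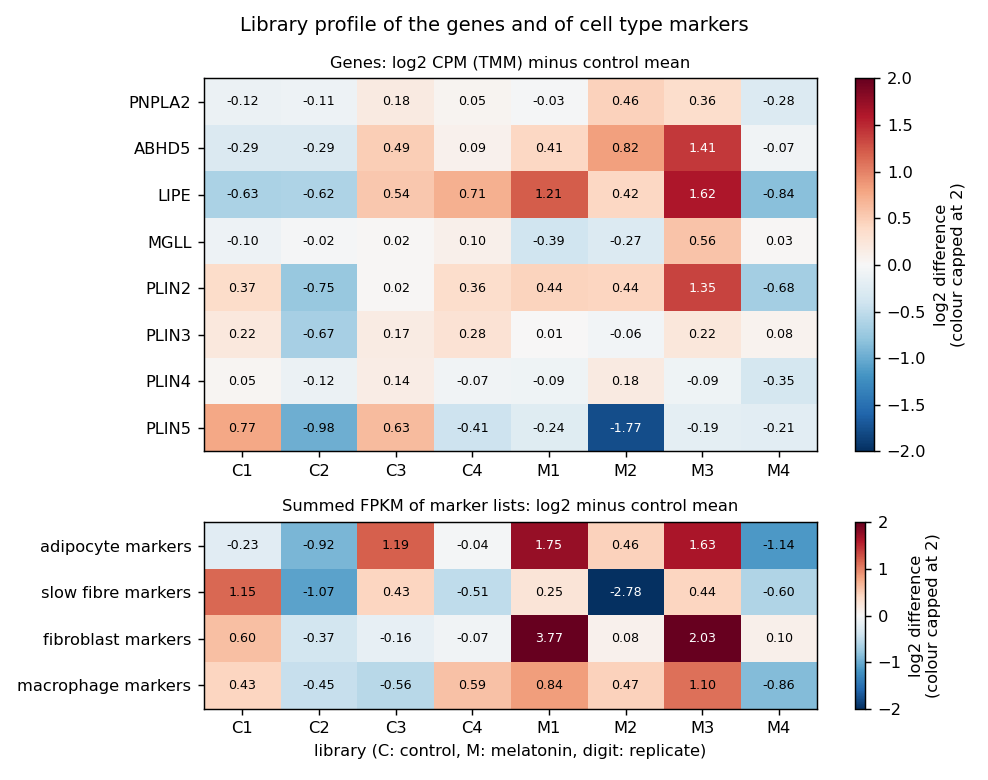
Log2 difference of each library from the control mean for the 8 tested genes (upper panel, TMM-scaled CPM) and for the summed FPKM of 4 marker lists (lower panel), with the value in each cell and colour capped at 2. LIPE and the adipocyte markers are both highest in M1 and M3, and PLIN5 and the slow fibre markers are both lowest in M2.

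Leaving libraries out moved the unadjusted calls. Without melatonin replicate 4, ABHD5, LIPE and PLIN2 were higher at an unadjusted p under 0.05, with log2 fold changes of 0.90, 1.03 and 0.75. These were 3 of 8 genes against 11.1% of all genes, and 0 of the 8 passed the adjusted test (edgeR adjusted p = 0.143, 0.207 and 0.243). Without melatonin replicate 3, 0 of the 8 were higher at that level against 3.83% of all genes, and without melatonin replicates 1 and 3 together 0 of the 8 against 2.81%.

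**Figure D5:**
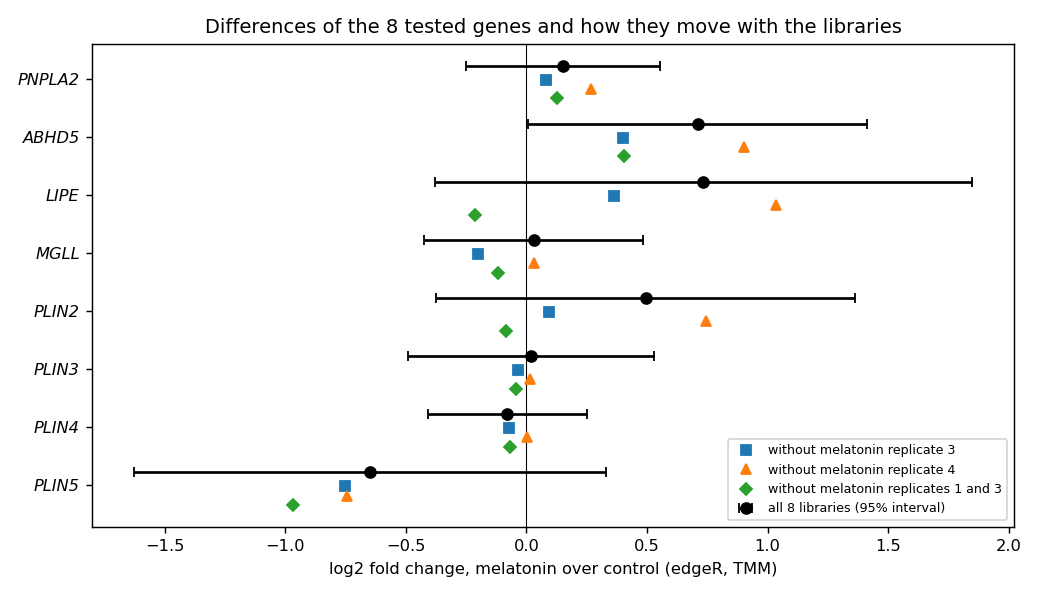
Log2 fold change (horizontal axis, edgeR with TMM) of the 8 tested genes with all libraries and its 95% interval, and without melatonin replicate 3, melatonin replicate 4, or melatonin replicates 1 and 3. All intervals but that of ABHD5 span 0, and LIPE runs from -0.22 to 1.03 over these settings.

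Genes with the most similar profile were found by Pearson correlation over the 8 libraries in TMM-scaled log2 CPM. The 3 highest of all named genes are given for each, as a description of these libraries, which share their scaling. For PNPLA2 they were ATG14, a subunit of the kinase complex that starts autophagosomes (r = 0.95), the ubiquitin ligase TRIM23 (0.95) and OSER1 (0.95). ABHD5 was closest to RNMT, the methyltransferase of the mRNA cap (0.999), SQOR, a mitochondrial sulfide oxidase (0.96), and PRKAB1, a subunit of the energy sensor AMPK (0.95). LIPE was closest to AGT, which encodes angiotensinogen (0.98), CLU (0.94) and MTURN (0.94). MGLL was closest to TMEM183A (0.97), UBR7 (0.94) and the phosphatase PTPN11 (0.94).

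Among the coat genes, PLIN5 was closest to NUDT7, a peroxisomal enzyme (r = 0.98), the slow myosin light chain MYL3 (0.97) and MYOM3, a sarcomere M-band protein (0.97). PLIN2 was closest to ANKRD13A (0.97), CCNL1 (0.97) and EPS8 (0.96). PLIN3 was closest to GIMAP6 (0.94), MFSD12 (0.92) and C12orf57 (0.90), and PLIN4 to FIS1, of mitochondrial fission (0.93), SAMD9 (0.93) and HSD17B8 (0.92).

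Other genes of the pathway were taken from 5 lists, and 0 of their genes passed the adjusted test in edgeR. The counts at an unadjusted p under 0.05 stand beside 6.67% of all genes higher and 3.84% lower, and, without melatonin replicates 1 and 3, beside 2.81% higher and 2.02% lower. Nothing particular to a list is read from them. Genes that carry hormone signals to the lipases had 4 of 19 tested genes higher at an unadjusted p under 0.05 and 0 lower, with a median log2 fold change of 0.16. Without melatonin replicates 1 and 3 these were 2 higher, PDE4D and INSR, and 0 lower, with a median of 0.00075. PDE4D, which degrades the cAMP that activates lipolysis, had control levels of 4.66 ± 0.408 FPKM and melatonin levels of 9.18 ± 3.82, which did not overlap (0.89 ± 0.25, edgeR adjusted p = 0.440). Genes of insulin signalling, which restrains lipolysis, were also among them: INSR (1.87 ± 0.520 and 2.93 ± 0.412 FPKM) and IRS2 (1.60 ± 0.543 and 2.96 ± 1.21 FPKM). The log2 fold change of IRS2, 0.79 (unadjusted p = 0.0336), no longer reached that level without melatonin replicates 1 and 3, at 0.76. INSR missed that level without control replicate 1 or 4 or melatonin replicate 2 (0.42 to 0.48 against 0.56).

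Fatty acid handling genes and PPAR targets had 3 of 21 higher and 0 lower at that level, with a median of -0.05, and DESeq2 called 1 of them. Without melatonin replicates 1 and 3 there was 1 higher, FOXO3, and 1 lower, CPT2, named after its values were seen. The gene called by DESeq2 was PDK4, which spares glucose when fat is burned. Its FPKM was 184, 98.6, 95.0 and 83.5 in controls and 415, 267, 574 and 116 after melatonin, so melatonin replicate 3 was again highest and replicate 4 within the controls (edgeR adjusted p = 0.440, DESeq2 adjusted p = 0.0323). The log2 fold change of PDK4 went from 1.41 to 0.83 without melatonin replicates 1 and 3 (edgeR unadjusted p = 0.0609). CPT1A, the gate for fatty acids into mitochondria, measured 4.10 ± 0.692 and 6.98 ± 2.63 FPKM (0.64 ± 0.19), and its log2 fold change was 0.36 without melatonin replicates 1 and 3 (unadjusted p = 0.114). The transcription factor FOXO3 measured 8.45, 13.3, 28.3 and 5.13 FPKM after melatonin, while its controls ran from 4.32 to 6.37, so melatonin replicate 4 lay within the controls. Its log2 fold change of 1.21 became 0.72 without melatonin replicate 3 (unadjusted p = 0.0503). ANGPTL4, a secreted inhibitor of lipoprotein lipase, measured 9.66 ± 3.10 and 14.2 ± 3.96 FPKM (unadjusted p = 0.0503, edgeR adjusted p = 0.475).

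The other lipases had 1 of 9 tested genes higher and 0 lower at an unadjusted p under 0.05, with a median of 0.29: PNPLA6, a phospholipase, measured 4.28 ± 0.365 and 5.67 ± 0.943 FPKM (0.32 ± 0.11). PNPLA6 was also higher at that level without melatonin replicates 1 and 3 (0.34), when the median of the list was -0.025, but not without melatonin replicate 2 (0.26, unadjusted p = 0.0577). DDHD2 had a log2 fold change of 0.39, the lysosomal lipase LIPA 0.43 and the diglyceride lipase DAGLA -0.55, and without melatonin replicates 1 and 3 DDHD2 was at 0.16 and LIPA at 0.13. Other droplet proteins, a list that shares PLIN1 and CIDEC with the adipocyte markers, had 1 of 14 higher and 0 lower, with a median of 0.23. That gene was SPART, which encodes spartin, at 2.78 ± 0.470 and 4.27 ± 1.48 FPKM (0.51 ± 0.19). Without melatonin replicates 1 and 3 there were 0 higher and 0 lower, with a median of -0.011 and SPART at 0.39 (unadjusted p = 0.105). The droplet-forming protein FITM1, abundant in muscle, measured 121 ± 26.9 and 100.4 ± 4.41 FPKM (-0.33 ± 0.19), and HSD17B11 and FAF2 had log2 fold changes of 0.40 and 0.24. Without the same libraries FITM1 was at -0.12, HSD17B11 at 0.20 and FAF2 at 0.15. On the opposite arm, triglyceride synthesis had 0 of 12 higher and 1 lower, with a median of 0.06. The lower gene was the lipin LPIN3 (3.33 ± 0.857 and 2.44 ± 0.513 FPKM, -0.51 ± 0.21), while its relative LPIN1 had a log2 fold change of 0.55 with 41.5 FPKM in melatonin replicate 3. DGAT2 (1.38 ± 1.24) and GPAM (-0.54 ± 0.53) had the smallest p of the rest. Without melatonin replicates 1 and 3 this list had 0 higher and 0 lower and a median of -0.15, with LPIN3 at -0.41 (unadjusted p = 0.123), DGAT2 at -0.83 and GPAM at -1.10. LPIN1 was at 0.25 without melatonin replicate 3. IRS2, SPART and LPIN3 each also missed an unadjusted p of 0.05 when melatonin replicate 2 or melatonin replicate 3 alone was left out. The same held on leaving out 1 control: replicate 1, 2 or 4 for IRS2, replicate 1 or 3 for SPART and replicate 3 or 4 for LPIN3.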

How the data were processed

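Poly(A) RNA was sequenced as dUTP-stranded, paired-end libraries, per the labels' protocols. Each gene has a raw count and an FPKM value in every library, per the file headers, and the authors scaled the FPKM by gene length and library. The submitters' processing notes name the Sscrofa11.1 build and the tools StringTie, FastQC and DESeq2. Which aligner and annotation were used is not given in the sources used here. Value columns left unmapped to a library numbered 0. No pair of libraries was a duplicate (smallest chi-square per degree of freedom 49.8).

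Counts of the 9821 genes at a mean FPKM of at least 1 were fitted with edgeR (version 4.0.16, under R 4.3.3), with TMM factors from 0.851 to 1.19, the legacy quasi-likelihood F test, without covariates, and p-values were adjusted over all of them (Benjamini-Hochberg, threshold 0.05). The SE is the log2 fold change divided by the root of F. FPKM are not TMM-scaled, so group means and fold changes can differ in sign near 0, as for PLIN4. Ratios were compared by two-sided exact permutation in Python 3.11.15. Of 3 ratios planned, that of G0S2 to PNPLA2 was left out because G0S2 has 0 counts in control replicate 1. The scripts were tested on simulated data. Alternatives used DESeq2 1.42.0, limma 3.58.1 on log2(FPKM + 1) and log2(FPKM + 0.1), other scaling and filters, the bias-adjusted test, the replicate number as a block and libraries left out.

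Named genes are the 9 genes, up to 4 genes per list with the smallest p, and the 3 genes most alike each gene; a list gene is not reported here. Genes, lists and rules were chosen with earlier results of these data known.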

Additional observations from a re-analysis of the deposited data

Results flagged for a closer look

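In 60 groups of 4 libraries, 6 held a library far from the other 3. The cut-off gives about 1 in 20 for independent, normally distributed values. Values of related genes in the same 8 libraries need not be so, and no excess is read from the count. MGLL stood at 35.9 FPKM in melatonin replicate 3 against 15.8 to 18.4 in the other melatonin libraries. PLIN4 stood at 16.8 FPKM in melatonin replicate 4 against 25.9 to 27.4. Among the list genes, PDK4 stood at 184 FPKM in control replicate 1 against 83.5 to 98.6, and ANGPTL4 at 14.3 FPKM in control replicate 4 against 7.74 to 8.38. DGAT2, a triglyceride synthase of adipocytes, stood apart in both groups, at 5.24 FPKM in control replicate 3 against 0.130 to 0.607 and at 14.8 FPKM in melatonin replicate 1 against 0.245 to 2.32. These libraries had the highest summed adipocyte markers of their groups, 174 and 256 FPKM. Melatonin replicate 3 had a sum of 235 FPKM with DGAT2 at 2.32 FPKM. The part of adipocyte content in the DGAT2 values was not tested.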

How the results depend on the processing

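The 8 genes and 20 list genes gave 476 values under the alternatives, of which 462 kept their direction and their side of the threshold, 13 changed sign and 1 passed the threshold (PDK4 in DESeq2). The threshold here is an adjusted p of 0.05, which 0 genes passed in edgeR with all libraries. Keeping that side therefore says little about stability, and values that lost an unadjusted p under 0.05 count as kept. Without melatonin replicates 1 and 3, the log2 fold change turned to -0.22 for LIPE, -0.12 for MGLL, -0.083 for PLIN2, -0.042 for PLIN3 and -0.83 for DGAT2. With each library left out in turn, it ran from -0.20 to 0.15 for MGLL, -0.16 to 0.11 for PLIN3, -0.18 to 0.0030 for PLIN4, -0.33 to 3.53 for DGAT2 and -0.80 to 0.051 for GPAM. Over the same fits 0 to 15 genes were called, 568 to 1882 reached an unadjusted p under 0.05, and 0 to 3 of the 8 were higher at that level. Against 1032 of 9821 genes at that level, the fit without a filter gave 1789 of 23235. Limma gave 556 with log2(FPKM + 1) and 559 with log2(FPKM + 0.1). Leaving out melatonin replicate 3 or 4 alone gave 568 and 1882. The fit without melatonin replicates 1 and 3 gave 474. In these limma fits and in that last fit 0 of the 8 were higher. DESeq2 called 65 genes. The causes of these differences between fits and tools were not tested.

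The replicate number was not taken as a pairing: deviations of same-numbered libraries correlated at 0.18, 0.069, 0.17 and -0.027, and control replicate 2 was closest to melatonin replicate 4 (0.30). With the replicate block, 0 genes were called, MGLL was at -0.019 and 1 of the 8 genes, PLIN5, was lower at an unadjusted p under 0.05. With the block, an exact sign-flip test gave p = 0.125 for the ABHD5 to PNPLA2 ratio, the smallest that 4 pairs allow, and p = 0.375 for PLIN5 to PLIN2. The ratios kept their direction in every fit, from 0.29 to 0.62 and from -1.48 to -0.59. With 4 libraries per group, the 95% intervals given for each gene set what was detectable.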
